A study of Drosophila melanogaster with 6 samples.

Results

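The genes examined here build the contractile apparatus of muscle and were taken by symbol from a list of 10: *Mhc*, *Mlc1*, *Mlc2*, *up*, *wupA*, *Tm2*, *Act57B*, *Act87E*, *bt* and *sls*. Their levels were compared between wing discs with *Nup98-96* knockdown and control discs, in a count table of 17559 genes. For 9 of the 10 the FlyBase identifier was a row of that table, and *wupA*, which encodes troponin I, had no row under its current identifier and was not analysed here. The genes were listed by name, and the rule that lists them uses no measured value. The list was, however, chosen with earlier results of these data known, so it is not independent of the comparison.

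Both groups were wing discs of wandering L3 *Drosophila* larvae carrying 1 copy each of UAS-P35, of ap-Gal4 with UAS-GFP, and of tub-Gal80TS, and they differed in the RNAi transgene opposite the last, UAS-Nup98 RNAi HM05048 for the knockdown and UAS-white RNAi JF01540 for the control. P35, a baculovirus inhibitor of caspases, was therefore expressed in knockdown and control discs alike. The *ap*-Gal4 driver acts in the dorsal compartment and was held off for 4 days at 18°C and on for 72 h at 28°C, so that undriven cells contribute RNA to each library. Each group had 3 libraries of polyadenylated RNA from pools of 40 discs, and between 70342787 and 110330112 counts fell on genes per library. The p-values below measure the spread between such pools. Levels are given in CPM, the counts of a gene scaled by the library total, after each total was multiplied by its TMM factor (0.963 to 1.02).

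The targeted gene itself, *Nup98-96*, was at 331, 335 and 316 CPM in the control libraries and at 317, 302 and 314 CPM in the libraries labelled as its knockdown. The groups overlapped, and the log2 fold change of -0.07 was not called (edgeR, adjusted p = 0.118). These counts of RNA from whole discs, undriven cells included, thus do not show a lower *Nup98-96* level. The paper reports reduced protein of the targeted gene in its RNAi experiments. Protein is not measured by these counts, and whether it was lower in these discs was not tested. The target of the control RNAi, *w*, was lower in the *white* RNAi libraries, at 485, 573 and 573 CPM, than in the others, at 1064, 1071 and 861 CPM (log2 fold change 0.88, edgeR adjusted p = 0.000326). In what follows, knockdown discs and libraries are those labelled so.

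In striated muscle, the force-producing unit is the sarcomere, in which thick filaments of myosin slide past thin filaments of actin. Tropomyosin and the troponin complex on the thin filament control access of myosin to actin, and giant proteins of the titin family link the filaments to the Z-disc. A larval wing disc is mainly epithelium, and myoblasts lie on the epithelium of its notum and later build the flight muscles. In bulk RNA, fewer cells of a type and less RNA per cell cannot be told apart.

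Of the 9 genes with values, 7 were higher in *Nup98-96* knockdown discs (*Mhc*, *Mlc1*, *Mlc2*, *up*, *Tm2*, *bt* and *sls*), and the actin genes *Act57B* and *Act87E* were lower. Here a call means an edgeR adjusted p, taken over all genes tested, under 0.05 together with a log2 fold change of 0.5 or more in either direction. Of the 7942 genes in the test, 15.3% met this rule with higher and 11.2% with lower levels in knockdown discs. For each of the 9 genes the lowest library of one group lay above the highest library of the other, as it did for 36.6% of all genes tested with the knockdown higher and for 36.2% with the knockdown lower. The 9 log2 fold changes had a median of 1.73, against 0.0014 over all genes tested. The filter on low counts kept *up*, *Mlc1* and *Tm2* only through their knockdown libraries, which favors genes that are higher there. Of the other listed genes kept in the same way, *Mf*, *Prm*, *Mp20* and *Mlp84B* were called higher. *TpnC73F* (log2 fold change 0.57, edgeR adjusted p = 0.115) and *sing* (0.58, edgeR adjusted p = 0.0517) were not called. With no filter, which tested 15021 genes and called 13.0% higher and 8.12% lower, the same 9 genes were called in the same directions. Their median was then 1.71, against 0.096 over all genes tested.

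**Figure D1:**
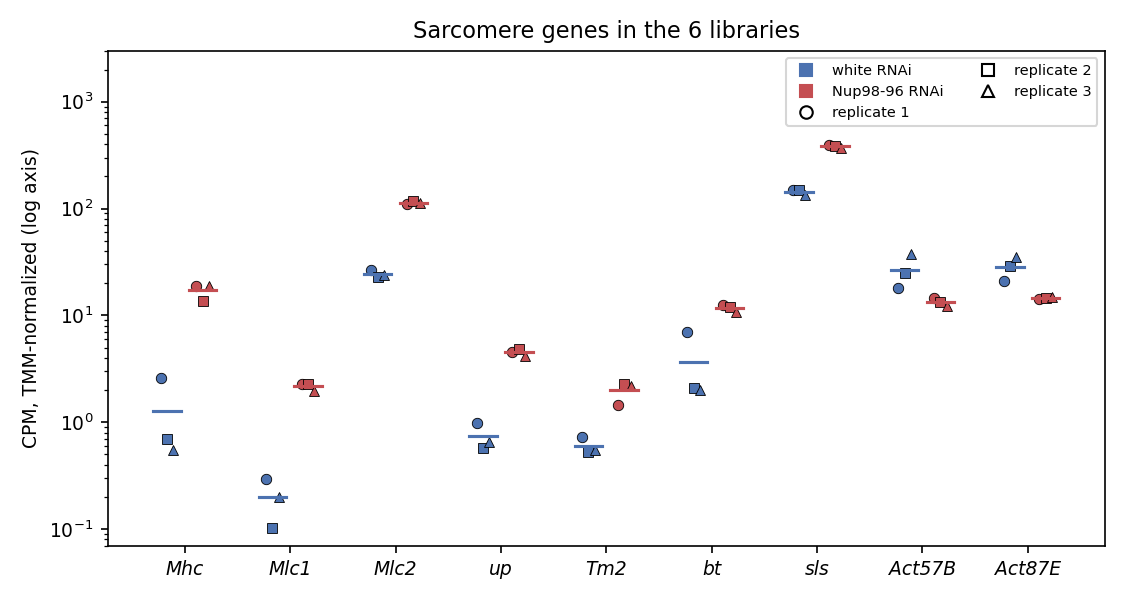
CPM (TMM-normalized, log axis) of the 9 genes with values, in 3 *white* RNAi libraries (blue) and 3 *Nup98-96* RNAi libraries (red). Symbols mark the replicate and short lines the group mean. From *Mhc* to *sls* the red symbols lie above the blue ones, *white* RNAi replicate 1 has the highest control value for *Mhc* (2.60) and *bt* (7.05), and the order is inverted for *Act57B* and *Act87E*.

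The values of the muscle genes have to be read beside 1 control library. The 8 marker genes of the fat body, a storage and endocrine tissue of the larva, summed to 3707 CPM in control replicate 1, to 30.7 and 72.0 CPM in control replicates 2 and 3, and to between 55.2 and 93.0 CPM in the knockdown libraries. In the same control library *Mhc* was 4.20 times and *bt* 3.47 times the mean of the other control libraries. The ratio was 1.96 for *Mlc1*, 1.60 for *up*, 1.35 for *Tm2*, 1.12 for *Mlc2* and 1.06 for *sls*, while *Act57B* and *Act87E* were at 0.573 and 0.664 of that mean. Values without this library are given below for *Mhc*, *Mlc1*, *up*, *bt* and *Act57B*. Without it, 4 of the 8 fat body markers (*Lsp1alpha*, *Lsp1beta*, *Lsp1gamma* and *apolpp*) were called higher in knockdown discs, with log2 fold changes of 2.16, 2.59, 0.81 and 1.05, and their part in the values of the muscle genes was not tested. Markers of the disc epithelium were present in all 6 libraries, with a sum of 2558 to 2713 CPM in control discs, against 1833 to 1887 CPM after knockdown.

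Among the genes of the thick filament, *Mhc* (chromosome 2L of BDGP6, 16766566 to 16788766, 9058 exonic bases) encodes the muscle myosin heavy chain. *Mhc* was at 2.60, 0.691 and 0.547 CPM in control replicates 1 to 3 and at 19.0, 13.7 and 18.9 CPM in knockdown replicates 1 to 3. These values rest on 247, 67 and 58 reads in control and 1343, 1384 and 1645 reads in knockdown discs. Its mean was 1.28 ± 1.14 CPM (SD, n = 3) against 17.2 ± 3.02 CPM (SD, n = 3), a ratio of 13.4. The fitted log2 fold change was 3.75 with a standard error of 0.58 (edgeR quasi-likelihood, adjusted p = 0.00113), which placed *Mhc* at rank 87 of 7942 genes from the highest. Without control replicate 1 the ratio was 27.7 and the fitted value 4.79.

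*Mlc1*, the essential light chain gene of muscle myosin (chromosome 3R, 27657078 to 27660177), was near the limit of what the depth could measure in control discs. Its control libraries held 28, 10 and 21 reads, or 0.294, 0.103 and 0.198 CPM. In the knockdown libraries it stood at 2.27, 2.30 and 1.96 CPM from 161, 233 and 171 reads. The knockdown mean was 11.0 times the control mean, with a log2 fold change of 3.45 and a standard error of 0.40 (edgeR, adjusted p = 0.000323). Without control replicate 1 the ratio was 14.5 and the fitted value 3.83.

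*Mlc2*, which encodes the regulatory light chain (chromosome 3R, 30171438 to 30174551), was far more abundant. It was at 26.3, 23.0 and 24.0 CPM in control discs, against 109.5, 117.1 and 111.9 CPM after knockdown. The libraries of each group lay close together, with a coefficient of variation of 6.98% in control and 3.44% in knockdown discs. The ratio of means was 4.62, and the log2 fold change of 2.21 had a standard error of 0.06 (edgeR, adjusted p = 6.20e-07). Leaving out any single library left it between 2.17 and 2.26. For comparison, the light chain genes of nonmuscle myosin II, *sqh* and *Mlc-c*, a pair chosen after the values above were seen, had log2 fold changes of 0.26 and 0.24 and were not called.

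On the thin filament, *up* encodes troponin T (chromosome X, 13593474 to 13602578). Its control libraries held 0.988, 0.578 and 0.660 CPM and its knockdown libraries 4.55, 4.84 and 4.18 CPM. The ratio of means was 6.09, and 7.31 without control replicate 1. The log2 fold change was 2.61 with a standard error of 0.25 (edgeR, adjusted p = 0.000120).

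*Tm2* encodes a muscle tropomyosin (chromosome 3R, 15310193 to 15315197). It had the lowest mean CPM of the 9 genes in knockdown discs, with 1.46, 2.30 and 2.19 CPM, and lay at 0.726, 0.526 and 0.547 CPM in control discs. The ratio of 3.31 corresponded to a log2 fold change of 1.73 with a standard error of 0.29 (edgeR, adjusted p = 0.00177). *Tm1*, the second tropomyosin gene, ends 1413 bases before *Tm2* starts on the same strand and also makes tropomyosins of nonmuscle cells. *Tm1* ran from 759 to 908 CPM in control and from 618 to 633 CPM in knockdown discs, and its log2 fold change of -0.41 stayed under the fold threshold. The tropomyosin neighbours thus had log2 fold changes of opposite sign.

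The muscle actin genes *Act57B* (chromosome 2R, 20944021 to 20946431) and *Act87E* (chromosome 3R, 13425983 to 13428375) were the 2 genes of the set that fell. *Act57B* was at 18.0, 25.0 and 37.7 CPM in control discs, against 14.7, 13.5 and 12.2 CPM after knockdown. *Act87E* was at 21.1, 28.8 and 34.8 CPM in control discs, against 14.4, 14.6 and 15.0 CPM after knockdown. For both genes the control libraries were spread (coefficient of variation 37.3% and 24.4%), with replicate 1 lowest and replicate 3 highest, and the knockdown libraries were tight (9.14% and 2.11%). The log2 fold change was -1.0 for *Act57B* (standard error 0.25, edgeR adjusted p = 0.0110) and -0.95 for *Act87E* (standard error 0.17, edgeR adjusted p = 0.00214). Without control replicate 3 the value for *Act57B* was -0.67, and without control replicate 1 it was -1.22, and it was called in both cases.

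The same direction held in the actins of all cells. *Act5C* and *Act42A*, which encode the cytoplasmic actins, fell with log2 fold changes of -0.59 and -0.61. Their control means were 6879 ± 451 and 1630 ± 100 CPM and their knockdown means 4569 ± 105 and 1068 ± 30.1 CPM (SD, n = 3). Actin genes are close copies of each other, and whether reads that fit more than 1 copy were counted is not given in the sources used here. The counts of *Act57B* amounted to 0.282%, 0.353% and 0.524% of those of *Act5C* in control and to 0.320%, 0.302% and 0.261% in knockdown discs, and those of *Act87E* to 0.332%, 0.407% and 0.484% and to 0.314%, 0.326% and 0.320%. The groups overlapped in the ratio of *Act57B* to *Act5C* and not in that of *Act87E*, where the lowest control library was 0.332% and the highest knockdown library 0.326%. How far reads of the cytoplasmic genes enter the values of the muscle actins was not tested. The remaining actin genes, *Act88F* of flight muscle and *Act79B* of other adult muscles, reached at most 0.650 and 0.0841 CPM in any library and fell below the filter.

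**Figure D2:**
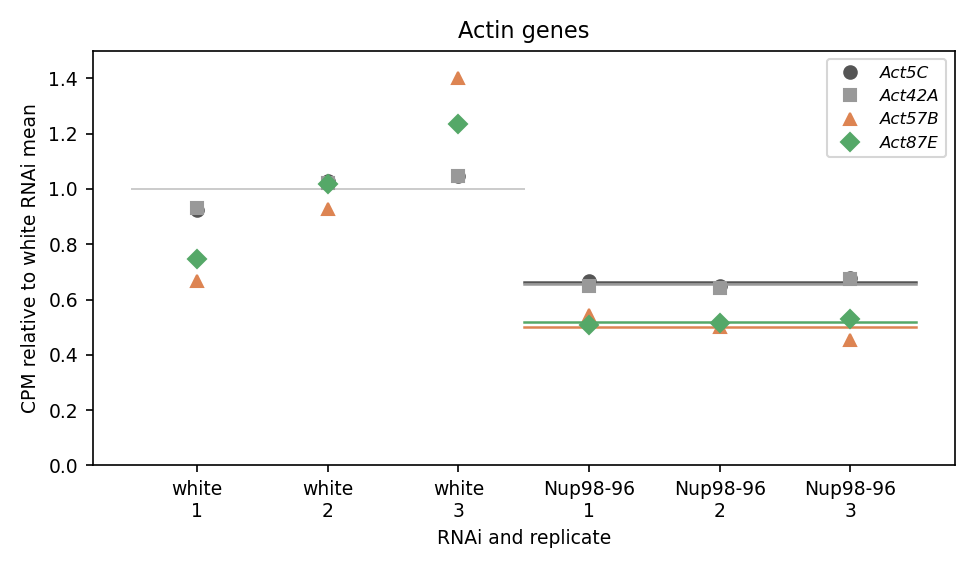
CPM of 4 actin genes in each library, divided by the mean of the gene's 3 *white* RNAi libraries (grey line at 1), with the mean of the *Nup98-96* RNAi libraries as a line in the gene's color. *Act5C* and *Act42A* lie close together in each library, and *Act57B* and *Act87E* rise above and fall below them in the control libraries.

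Of the giant proteins, *bt* encodes projectin (chromosome 4, 724400 to 776474, 28019 exonic bases) and *sls* encodes Sallimus and kettin (chromosome 3L, 2039681 to 2115611, 58996 exonic bases). *sls* had the highest CPM of the 9 genes, with 150.1, 148.7 and 133.2 CPM in control discs, against 392, 386 and 371 CPM after knockdown. The log2 fold change of *sls* was 1.41 with a standard error of 0.05 (edgeR, adjusted p = 2.29e-06), a ratio of 2.66. An antisense RNA gene overlaps 1089 of the exonic bases of *sls*, and reads were counted without regard to strand, so that the 2 genes cannot be told apart there. *bt* was at 7.05, 2.07 and 1.99 CPM in control discs, against 12.4, 11.9 and 10.7 CPM after knockdown. The ratio of *bt* was 3.15, and 5.74 without control replicate 1. Its log2 fold change of 1.66 carried a standard error of 0.49 (edgeR, adjusted p = 0.0204) and was 2.52 without control replicate 1. Leaving out control replicate 2 or knockdown replicate 1 or 2 ended the call of *bt*, with log2 fold changes of 1.37, 1.61 and 1.63.

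**Figure D3:**
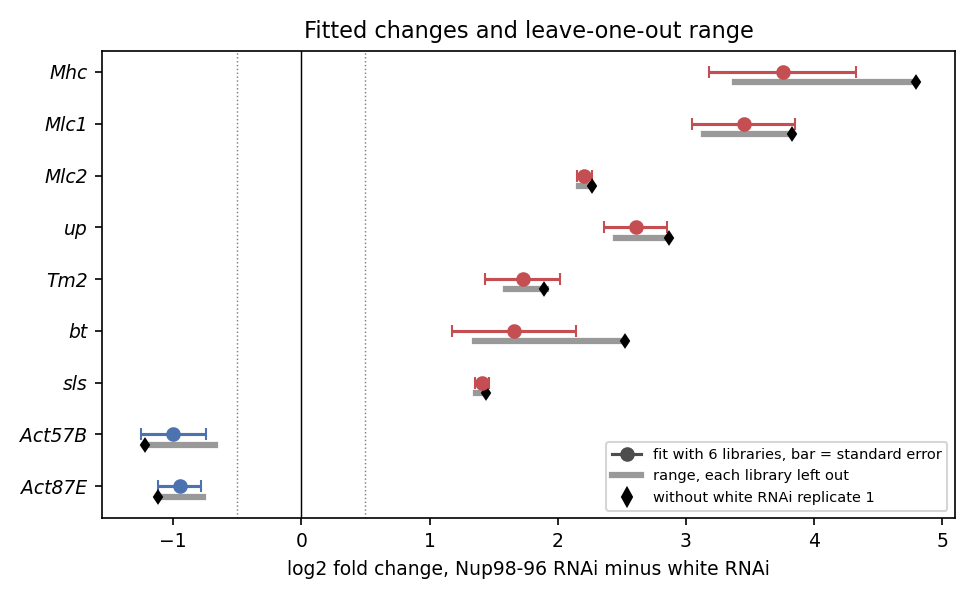
Log2 fold changes of the 9 genes (points, bars are standard errors), the range of the fits with each library left out in turn (grey) and the fit without *white* RNAi replicate 1 (diamonds). Dotted lines mark 0.5 in either direction. No fit crosses 0, and the widest ranges are those of *Mhc* (3.38 to 4.79) and *bt* (1.36 to 2.52).

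Per kilobase of exon, the 7 higher genes did not stand in equal amounts. The length used joins all annotated exons of a gene, which can exceed a single transcript and so understate its level. It joined 32 exon blocks for *Mhc* and 3 for *Mlc2*, and transcript lengths were not used. In knockdown discs *Mhc*, *up* and *Mlc1* were at 1.90, 1.79 and 1.54 CPM per kilobase, *Tm2* at 0.759 and *bt* at 0.417, whereas *sls* was at 6.49 and *Mlc2* at 49.4 CPM per kilobase. In muscle, heavy chain and each light chain of myosin stand in equal numbers in the protein complex. In the knockdown libraries the level of *Mlc1* per kilobase was 0.666 to 1.08 times that of *Mhc*, and that of *Mlc2* was 22.9 to 33.9 times that of *Mhc*. In the control libraries, where *Mhc* and *Mlc1* rest on few reads, these ratios ranged from 0.726 to 2.32 and from 40.2 to 174. The abundant genes *sls* and *Mlc2* together made up 67.3% to 77.7% of the summed CPM of the 9 genes in control and 88.0% to 88.9% in knockdown discs. The other 5 higher genes summed to 11.7, 3.97 and 3.94 CPM in control and to 39.7, 35.03 and 37.9 CPM in knockdown discs.

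Beyond these genes, 20 others of the thick filament, thin filament and Z-disc were listed. Of these, 11 passed the filter on low counts, 2 were called higher, 1 lower and 8 were not called, with a median log2 fold change of -0.09. Over all genes tested, 15.3% were called higher and 11.2% lower, so these counts are near the general share. The higher ones were *Mf*, which encodes the thick filament protein myofilin (0.273 ± 0.0887 CPM in control, 2.19 ± 0.189 CPM in knockdown discs, SD, n = 3), and *Prm*, which encodes paramyosin (0.712 ± 0.137 and 3.49 ± 0.401 CPM, SD, n = 3). Their log2 fold changes were 2.99 and 2.29 (edgeR, adjusted p = 0.000225 and 0.000159). Both passed the filter only through their knockdown libraries, and both were also called higher with no filter. The lower one was *Obsc*, which encodes the obscurin of the M-line, at 6.14 ± 0.366 and 3.26 ± 0.403 CPM (SD, n = 3) and a log2 fold change of -0.92. *Zasp52*, of the Z-disc and of epithelial actin cables, had a value of 0.41, and *Actn*, the alpha-actinin gene, -0.16, and both missed the fold threshold. Troponin C is encoded by several genes in flies, and *TpnC47D* held 0, 0 and 1 reads in control and 14, 43 and 30 reads in knockdown discs. With no filter it was called higher, while *TpnC73F*, with 1.09 to 1.24 CPM in control discs, against 1.31 to 2.32 CPM after knockdown, was not called. *fln* and *Zasp67* had no more than 0.0229 CPM in any library and *TpnC4* no more than 0.138 CPM.

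Low-level muscle genes of other functions included further calls. Of 8 genes for transcription and assembly in muscle with a row in the table, 6 were tested, 2 were higher and 1 was lower. The shares over all genes tested were 15.3% higher and 11.2% lower. *Mp20*, a calponin-related muscle protein gene, was at 0.315, 0.186 and 0.471 CPM in control discs, against 2.20, 1.93 and 1.43 CPM after knockdown (log2 fold change 2.51), and *Mlp84B*, a LIM protein gene of the Z-disc, had a value of 1.30. These higher genes, too, passed the filter only through their knockdown libraries and were called higher with no filter. *Mlp60A*, its relative, did not pass the filter and was called higher without it (log2 fold change 1.97). The RNA-binding gene *how*, of tendon and muscle, fell with a log2 fold change of -0.83. *Mef2*, the transcription factor that activates many muscle genes, lay between 91.3 and 94.8 CPM in control libraries and between 74.7 and 76.1 CPM in knockdown libraries, a log2 fold change of -0.30 under the fold threshold.

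Genes of calcium handling and energy supply in muscle showed no call in the higher direction among the 3 tested. With no filter, *jp* of the junctional membrane complex was higher (log2 fold change 1.41). It held 38, 20 and 41 reads in control and 63, 75 and 92 reads in knockdown discs. Another gene, *CG46468*, overlaps 5935 of the 7454 exonic bases of *jp* on the same strand. *Argk1*, the arginine kinase gene, was at 706, 856 and 913 CPM in control discs, against 157.4, 156.0 and 147.1 CPM after knockdown, a log2 fold change of -2.43 (edgeR, adjusted p = 2.61e-06). *RyR*, the ryanodine receptor gene, was also lower (-0.57, edgeR adjusted p = 0.0357). The call of *RyR* was lost with glmTreat, with the replicate block and in each fit that left out a library other than control replicate 1. *SERCA*, which encodes the calcium pump, had -0.28 and was not called. Among all genes tested, 11.2% were called lower and 15.3% higher.

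**Figure D4:**
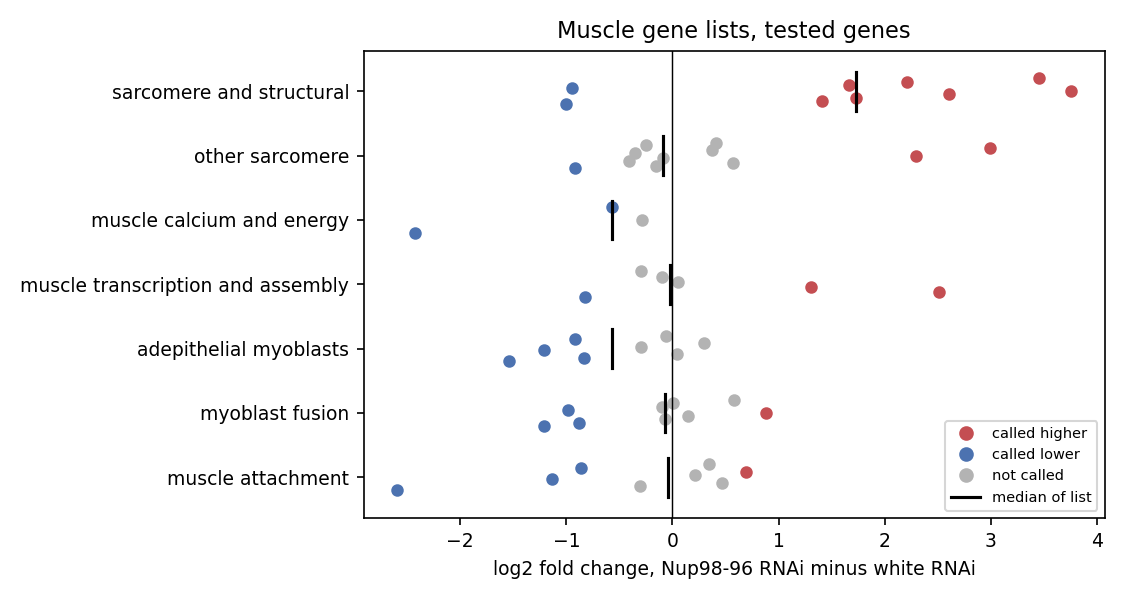
Log2 fold change of each tested gene in 7 lists of muscle genes, in red where called higher, blue where called lower and grey where not called, with the list median as a black line. The medians are 1.73 for the sarcomere and structural genes and -0.57 for the adepithelial myoblast genes.

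The adepithelial myoblasts, the muscle precursors of the disc, were followed by 8 genes. For this list and those of fusion and attachment below, the shares over all genes tested were 15.3% higher and 11.2% lower. All 8 were tested, none was called higher (1, *stumps*, had a positive log2 fold change at an adjusted p under 0.05 and missed the fold threshold), and 4 were lower. *twi*, a bHLH factor that keeps these cells undifferentiated, was at 39.0 ± 1.48 CPM in control discs, against 21.8 ± 1.07 CPM after knockdown (SD, n = 3), a log2 fold change of -0.84. *Him*, an inhibitor of *Mef2* activity, had -1.54, *zfh1* had -0.92 and *sns*, which encodes a cell adhesion protein of fusing myoblasts, -1.21. The FGF receptor gene *htl* was at -0.06. *stumps*, *Ama* and *Mef2* were at 0.30, 0.04 and -0.30, and like *htl* they were not called. The sarcomere genes that rose and the 4 lower myoblast genes differ in sign because each side was picked by its direction. The sarcomere list also held *Act57B* and *Act87E*, which fell. Of 9 tested genes of myoblast fusion, *blow* was higher (log2 fold change 0.88), and *sns*, *rst* and *kirre* were lower, the last 2 with -0.99 and -0.88. Of 8 tested genes of muscle attachment and tendon, *by*, the tensin gene, was higher (0.69). *sr*, which specifies tendon cells, was lower (-2.59), its control libraries lying between 27.5 and 31.0 CPM and its knockdown libraries between 4.53 and 5.37 CPM, and so were the integrin gene *if* (-1.13) and the thrombospondin gene *Tsp* (-0.86).

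Markers of other cells that can come with a dissected disc also differed between the groups. The 5 tracheal markers with values summed to 1127 to 1425 CPM in control discs, against 1784 to 1949 CPM after knockdown, where *Gasp*, *serp* and *verm* were higher and the tracheal determinant *trh* was lower. The neuronal markers summed to 100.5 to 107.6 and to 128.0 to 132.1 CPM, and single genes went both ways. *elav* was higher (log2 fold change 0.61), and *Syt1* (-1.11) and *Syx1A* (-0.04) were not called. A long noncoding RNA gene overlaps 2994 of the 10715 exonic bases of *elav* on the same strand. With no filter *nSyb* was higher (1.09), and *brp*, at no more than 0.377 CPM in any library, was lower (-1.44). The hemocyte markers overlapped between groups, at 117.0 to 202.7 and 197.6 to 220.9 CPM. Of the 5 hemocyte markers tested, *eater* was lower (-1.24), a call that was lost with glmTreat, with the replicate block and without control replicate 2 or knockdown replicate 1 or 2. With no filter the hemocyte genes *NimC1* (-1.88), *He* (-1.74) and *Pxn* (-0.59) were lower as well. With the filter, *Col4a1* (0.68) and *Hml* (0.35) had positive log2 fold changes and were not called. *Col4a1* was the largest part of the hemocyte sum in every library, at 50.9 to 133.9 CPM in control and 140.9 to 150.8 CPM in knockdown discs. Of the 8 fat body markers, *Apoltp* was lower (-3.96) in all fits and *Fbp1* (-4.44, or -1.93 without control replicate 1) lost its call with voom, glmTreat, the replicate block and each knockdown library left out. The part of these cells in the values of the sarcomere genes was not tested. The 5 markers of salivary gland and gut summed to 4.33 to 12.5 CPM in control discs, against 1.96 to 11.4 CPM after knockdown, with no call. Of the 8 tested genes of the disc epithelium, 6 were lower, with *bs* (-1.89) and *Dll* (-1.67) the lowest. For all these marker lists, the shares over all genes tested were 15.3% higher and 11.2% lower.

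In the genome the 9 genes lie apart, on chromosomes 2L, 2R, 3L, 3R, 4 and X. The nearest tested gene on either side of each, 18 in all, was looked up after the values above were seen. Of the 18, 5 were called higher, 2 lower and 11 were not called, and 4 were called in the same direction as the sarcomere gene beside them, against 15.3% and 11.2% of all genes tested that were called higher and lower. The other 3 calls went the opposite way. *Ir87a*, next to *Act87E*, had means of 0.0355 CPM in control and 6.04 CPM in knockdown libraries (log2 fold change 7.32). *acs*, the nearest tested gene on 1 side of *sls* but 65395 bases away, had -3.76, and *Tpst*, next to *up*, had -0.66. Next to *sls*, 1854 bases away and on the same strand, lies *zormin*, which encodes another giant protein of the Z-disc and M-line. *zormin* was at 102.4, 77.2 and 58.2 CPM in control discs, against 359, 382 and 360 CPM after knockdown, a log2 fold change of 2.21 (standard error 0.19, edgeR adjusted p = 8.18e-05). *Rsod*, 230 bases from *Mlc2* on the same strand, had a log2 fold change of 1.01, and *ppk17*, a channel gene 6011 bases from *Mhc* on the other strand, 3.49. *CG13272*, on the far side of *Mhc*, had 0.55.

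The tested genes outside all lists whose levels over the 6 libraries were most like the median of the 9 were *CG13692*, *puml*, *mus201*, *CG8630* and *Kank*. The measure was the root mean square difference of log2 CPM after centring each gene over the 6 libraries, which was 0.093 to 0.122 for these 5 genes and, among the 9 genes themselves, ran from 0.095 for *Mlc1* to 1.42 for *Act57B*. *mus201* encodes a nucleotide excision repair endonuclease. *Kank* was the most abundant of the 5, at 108.7 to 132.5 CPM in control discs, against 419 to 431 CPM after knockdown.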

How the data were processed

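The authors aligned reads of directional libraries to BDGP6 with Rsubread and deposited unnormalized counts per gene from featureCounts, labelled as unstranded. How reads with several matches were treated is not given in the sources used here. FastQC, limma and edgeR 3.13.4 are further tools in the submitters' processing notes. A second deposited table holds the authors' own fold changes and p-values and was not used here.

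From the counts, genes were kept by a Jaccard similarity filter (thresholds 1 to 200 normalized counts in 100 steps, locally linear loess with a span of 0.3, maximum at 200), which left 7942 genes. The loess degree of 1 was set after seeing the data, so that the filter kept the number of genes of an earlier analysis of these data; R's default degree of 2 put the threshold at 194 and kept 7965 genes, and it was added as an alternative. The knockdown was tested against the control with edgeR 4.0.16 (glmQLFit and glmQLFTest, R 4.3.3), TMM scaling and Benjamini-Hochberg adjustment over all genes tested. Standard errors are the log2 fold change divided by the square root of F. CPM use TMM-scaled library sizes over the genes kept. The script was tested on simulated data. Alternatives were voom with limma 3.58.1, the study's own test, DESeq2 1.42.0, other scalings, filterByExpr, no filter, glmTreat, no minimum fold change, fits without 1 library, and a block for the replicate number.

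Symbols, positions and exon lengths came from Ensembl release 115 on BDGP6 and a table of gene names, by FlyBase identifier (17253 of 17559 matched). The authors counted on an earlier release. Members and lists were chosen with earlier results of these data known. Besides the members, the genes named are the called members of each list with the 2 highest and 2 lowest log2 fold changes, the actins, and the 5 genes most like the members. Markers of other cell types are given mainly as sums. Others, named for their function or position, were chosen after their values were seen. Counts of libraries in a group differed beyond sampling noise (lowest chi-square over its degrees of freedom 16.0), and all 6 libraries were kept.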

Additional observations from a re-analysis of the deposited data

How the results depend on the processing

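Over 17 alternatives, of which the filter with R's default loess degree was chosen after seeing the data (7 genes higher, 2 lower, median 1.74), the 9 genes kept their direction in each one, and 7 genes were called higher in all but glmTreat and 3 of the leave-one-out fits, where *bt* was lost and 6 remained. With each library left out in turn, 6 to 7 genes were called higher and 2 were called lower. With glmTreat, 1 gene was called lower and the call of *Act57B* was lost (adjusted p = 0.0938). The adjusted p of *bt* ran up to 0.0900 and that of *Mhc* up to 0.00618 over the alternatives. The median log2 fold change of the 9 genes was 1.94 with voom, and between 1.63 and 2.26 with single libraries left out, the highest without *white* RNAi replicate 1. With the replicate number as a block, 7 genes were higher and 2 lower, with a median of 1.91, and no call of the 9 genes changed. The deviations of same-numbered libraries had correlations of -0.17, 0.00015 and 0.012, and those of unlike number ran from -0.18 to 0.21. With 3 libraries per group, these values cannot tell whether the number marks a pairing. The largest standard errors among the 9 genes were those of *Mhc* (0.58) and *bt* (0.49).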
